A study of Mus musculus with 18 samples.

Results

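The cytosolic ribosomal protein genes were followed across 6 groups of mouse intestine. They were taken by symbol: Rps or Rpl followed by a number, with an optional a, x or y, plus Rplp0, Rplp1, Rplp2 and Rpsa. The rule left out the Rps6k kinases and the mitochondrial Mrp genes, and it used no measured value except that the sample signal had to lie well above background on all 3 arrays of a group. The rule found 75 genes with a probe. All 75 were well above background in the sample channel on all 18 arrays, so none was lost to the filter. They made up 75 of the 26073 genes compared, with 29 genes of the small subunit and 46 of the large subunit.

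The RNA came from male C57BL/6 mice. Their feed was either the control diet or one containing the herb St. John's wort (SJW). They received an injection of saline or of azoxymethane (AOM), an alkylating agent that gives rise to tumours of the bowel. Non-tumour tissue came from all 4 combinations (control AOM, control saline, SJW AOM, SJW saline), and tumour tissue from the AOM-injected mice of each diet (control tumour, SJW tumour), with 3 arrays per group. Doses, ages and times are not given in the sources used here, nor is whether tumour and non-tumour tissue came from the same animals. Each sample, labelled with Cy5, was hybridised against 1 Cy3-labelled commercial pool of Swiss Webster RNA from 10 tissues (thymus, spleen, liver, lung, kidney, heart, brain, ovary, testicle and embryo). The dyes were not swapped. A level below is therefore the log2 ratio of sample over pool after loess normalization, and a change is a difference of such levels.

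Ribosomal proteins assemble with ribosomal RNA into the small subunit, which reads the messenger RNA, and the large subunit, which joins the amino acids. In mammals nearly all of them are made from messages that begin with a run of pyrimidines (TOP messages), whose translation follows nutrient and growth signals through mTOR and the binding protein Larp1. The dividing cells of the intestinal crypt make many ribosomes, and Myc raises ribosome production in intestinal tumours. Several members have roles outside the ribosome: Rpl5 and Rpl11, which bind the 5S RNA, restrain Mdm2 when ribosome assembly fails.

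The pyrimidine runs of the genes that separated tumour from non-tumour tissue are shown because TOP messages begin with such a run, and genes called in both directions had one near their annotated start. The windows run from 20 bases before to 20 bases after the annotated start, from RefSeq on GRCm38.p6, 5′ to 3′ on the gene's strand. Capitals mark a run that begins with C, holds only C and T and is at least 8 bases long. Of such runs within 50 bases of the annotated start, the one beginning nearest to it was taken. Counted from the annotated start, the runs begin at -2 in Rps27 and Rps24, at -4 in Rpl15, at -5 in Rpl35a and at 2 in Rpl13a. The 13-base run of Rpl4 begins at -17 and lies wholly before the annotated start, so it is not part of the annotated message. Rpl4 lies on the plus strand at chr9:64173367-64173406, Rpl13a on the minus strand at chr7:45128726-45128765 and Rpl15 on the minus strand at chr14:18270967-18271006. Rps27 lies on the minus strand at chr3:90213629-90213668, Rps24 on the plus strand at chr14:24490658-24490697 and Rpl35a on the plus strand at chr16:33056462-33056501. The first 3 sequences belong to genes called higher in control-diet tumours and the last 3 to genes called lower in tumours of at least 1 diet.
Rpl4: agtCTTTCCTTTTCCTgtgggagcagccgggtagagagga
Rpl13a: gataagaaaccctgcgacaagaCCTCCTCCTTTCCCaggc
Rpl15: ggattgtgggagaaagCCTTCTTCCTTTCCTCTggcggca
Rps27: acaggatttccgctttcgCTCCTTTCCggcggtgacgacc
Rps24: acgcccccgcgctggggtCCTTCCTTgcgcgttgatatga
Rpl35a: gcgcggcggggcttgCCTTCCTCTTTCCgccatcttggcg

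The promoter table held 56 of the 75 members. A run of this kind lay within 50 bases of the start, on the gene's strand, in 48 of the 56 (85.7%), against 31.9% of 26969 other genes. It was present in 5 of the 6 members called higher in tumours that the table held and in 9 of the 10 called lower, so the run did not separate the directions. Over the whole window, from 250 bases before to 50 after the start, the motif CCGGAAG was found on either strand in 23 members (41.1%) against 9.86% of other genes. ATGGCGG was found in 9 (16.1%) against 4.67%, and TATAAA in 6 (10.7%) against 15.7%. A match describes the letters only.

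On arrays the number of samples limits the precision, and the design text calls the 3 arrays of a group biological replicates. The median spot intensity ran from 133 to 786.5 in the sample channel and from 198 to 755 in the pool channel. On 6 arrays (control tumour 3, control AOM 2, SJW saline 1 and 3, control saline 2 and 3) the pool channel was brighter, with a median of 507 to 755 against 198 to 298 on the other 12. The 12 non-tumour arrays were on 3 slides and 1 scan day, each slide holding 1 array of every non-tumour group. The 6 tumour arrays were on 2 other slides of the second scan day, so tumour cannot be told apart from slide or scan day. The labels name small intestine, and the extraction protocol names liver. Per array, 7 colon markers averaged 2.75 to 4.58 in non-tumour tissue, 6 small intestine markers 0.54 to 2.14 and 5 hepatocyte markers -1.32 to -0.54.

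The members gave some of the brightest spots. The mean brightness of a gene's probe over both channels (A, on the log2 scale) had a median of 14.6 over the members and 8.79 over all genes, and 3 members (Rpl14, Rpl31 and Rpl27a) lay under 12. No member spot was saturated, but 2.75% to 59.6% of the member spots on an array were marked as non-uniform by the scanner software. RefSeq lists 313 pseudogenes named after 61 of the 75 members (Rpl31 alone has 24), and probes may bind their transcripts too, so each value is uncertain to that extent.

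Most ribosomal protein messages stood moderately above the pool, with a spread within groups slightly below that of all genes. The mean level over the 18 arrays was above the pool for 74 of 75 members, with a median of 0.48 and a highest value of 1.32 (Rpl31, part of the exit tunnel rim). Rpl21, at -1.03, was the exception by its brightest probe, while its other, dim probe (A of 6.59) averaged 0.67. The standard deviation within groups had a median of 0.199 for the members and 0.225 for all genes, and 53 members lay under the all-gene value. The median standard error of the tumour change on the control diet was 0.17 for the members. For 424 other genes about as bright it was 0.17 too, and for all genes 0.18. Array by array, the median over the members ran from 0.133 in control tumour 1 to 0.677 in control tumour 2, 2 samples of the same group. Control tumour 1 was thus the lowest under loess, and results that rest on it are given with and without it. With the scanner software's own log ratio it stood at 0.156, beside 0.157 in SJW saline 3. With each array centred on its median ratio it stood at 0.802 and was not the lowest (control saline 2, 0.121).

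How the arrays were scaled set the common level of the members. With each array centred on its median ratio in place of loess, the member medians spread from 0.121 (control saline 2) to 1.48 (control tumour 2). The common shift of the members between groups is therefore given for both scalings, and the calls of single genes for the loess values.

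**Figure D1:**
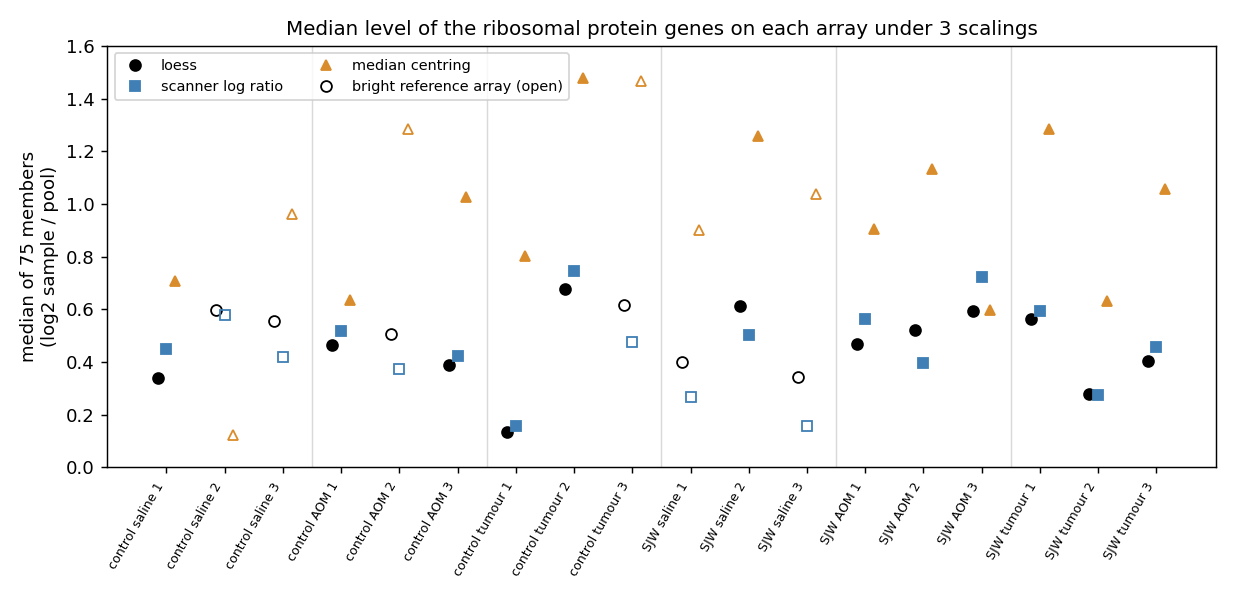
Median log2 ratio of sample over pool of the 75 ribosomal protein genes on each of the 18 arrays, under loess (circles), the scanner software's own log ratio (squares) and centring on the array median (triangles); open symbols are the 6 arrays with a bright pool channel. The loess medians lie between 0.133 and 0.677, and the centred medians between 0.121 and 1.48.

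AOM and saline were compared in tissue without tumour. Among ribosomal protein genes on the control diet, none was called higher or lower between control AOM and control saline in limma's moderated test with Benjamini-Hochberg adjustment over all genes (0 of 75, against 0.456% of all genes called higher and 0.127% lower). At an unadjusted p under 0.05 there were 6 members (8%) against 13.6% of all genes, and all 6 were lower. The median change of the members was -0.01, the same as over all genes, with 34 positive and 41 negative. With median centring it was 0.40 (0.02 over all genes). The all-gene counts of 119 higher and 33 lower fell to 46 and 12 with the slide as a block and to 9 and 2 without control saline 1. Within the slides of replicates 1, 2 and 3 the members' median change was 0.17, -0.05 and -0.13.

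The smallest p belonged to Rpl4, a protein of the exit tunnel wall. Rpl4 stood at 0.79, 0.75 and 0.63 after saline and at 0, 0.11 and 0.39 after AOM on the control diet. The AOM arrays lay below all saline arrays, a change of -0.56 ± 0.16 (SE; 95% interval -0.90 to -0.23; limma adjusted p = 0.105). The other 5 were Rpl5 (-0.45 ± 0.17), Rps14 (-0.34 ± 0.14), Rpsa (-0.35 ± 0.16), Rpl10a (-0.34 ± 0.15) and Rpl3 (-0.37 ± 0.17), each without overlap between its groups and each with a limma adjusted p of 0.227 to 0.342. The second, dimmer probes of Rpl5 and Rpsa gave values of the other sign, 0.17 ± 0.20 and 0.25 ± 0.18. The 3 P stalk proteins, which recruit the elongation factors, had positive values by their brightest probes: 0.22 for Rplp0, 0.19 for Rplp1 and 0.39 for Rplp2 (limma adjusted p = 0.368 for Rplp2, the smallest of the 3). The second probe of Rplp0, also bright (A of 14.71), gave -0.11 ± 0.16.

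On the SJW diet no member was called after AOM either (0 of 75, against 0.656% of all genes higher and 0.479% lower in limma), and 2 members (2.67%) had an unadjusted p under 0.05 against 19.3% of all genes. The median change was 0.12, with 60 of 75 positive, where all genes had -0.02. It was 0.06 without SJW saline 3 and 0.21 without SJW saline 2. The all-gene counts of 171 higher and 125 lower fell to 1 and 0 with the slide as a block, to 6 and 1 with pool brightness as a block (added after seeing the data), and to 0 and 0 without SJW saline 3 or without SJW AOM 2. The members' median change was -0.19 with median centring, so its sign depended on the scaling. Within the slides of replicates 1, 2 and 3 it was 0.12, -0.05 and 0.26.

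The 2 members were Rpl18 and Rpl29, both of the large subunit. Rpl18 stood at 0.54, 1.02 and 1.57 in SJW saline and at 0.30, 0.31 and 0.23 in SJW AOM. The SJW saline arrays were spread widely and all lay above the AOM arrays, a change of -0.77 ± 0.20 (limma adjusted p = 0.0686). Rpl29 stood at -0.03, 1.49 and 2.67 in SJW saline and at -0.30, 0.96 and 0.08 in SJW AOM, with overlap (-1.13 ± 0.48, limma adjusted p = 0.215). SJW saline 2 and 3 carried both values: without SJW saline 1, both genes were called lower after AOM (-1.02 for Rpl18 and -1.83 for Rpl29, limma adjusted p = 0.0221 and 0.0403). The 3 other probes of Rpl29 gave changes of 0.07, 0.01 and -0.01 where the brightest gave -1.13, so a single probe carried the Rpl29 value.

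Tumour and non-tumour tissue were then compared within each diet. In tumours of control-diet mice, 8 ribosomal protein genes were higher and 6 were lower than in non-tumour tissue of AOM-injected mice. The largest rise was Rpl3, 1.91-fold, a protein near the peptidyl transferase centre, and the largest fall Rps27, a zinc-finger protein of the small subunit, 1.57-fold. The calls made up 10.7% higher and 8% lower of the members, beside 12.7% and 19.3% of all genes, so neither share exceeded the background. Their median change was 0.05 (40 positive, 35 negative) against -0.05 over all genes. With median centring it was 0.27 against 0.11, with 6 members called higher and 0 lower, while the calls over all genes turned from 3313 higher and 5020 lower to 3777 and 1854.

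The members called higher were, besides Rpl3, the laminin receptor precursor Rpsa (0.67 ± 0.16), Rpl4 (0.63 ± 0.16), Rpl13a (0.63 ± 0.16), Rpl15 (0.59 ± 0.14), the 5S-binding protein Rpl5 (0.58 ± 0.17), Rpl10a (0.54 ± 0.15) and Rpl21 (0.53 ± 0.13). Limma adjusted p ran from 0.000731 for Rpl3 to 0.0149 for Rpl5. Only Rpsa was of the small subunit.

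Rpl3 stood at 0.73, 0.69 and 0.41 in control saline, at 0.08, 0.25 and 0.38 in control AOM and at 0.84, 1.49 and 1.18 in control tumours. The tumours lay above both non-tumour groups, and the change from control AOM was 0.93 ± 0.17 (95% interval 0.57 to 1.29; limma adjusted p = 0.000731). Rpl15 stood at 0.03, 0.14 and 0.08 after saline, at 0.10, 0.15 and 0.22 after AOM and at 0.40, 0.83 and 1.01 in tumours, also clear of both. Rpl21, below the pool on every array by its brightest probe, stood at -0.99, -1.06 and -1.20, at -1.24, -1.08 and -1.35 and at -0.60, -0.86 and -0.62 in the same order, with the tumours highest of all.

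For Rpl4, Rpl5, Rpl10a and Rpl13a the picture against saline was different. Rpl4 stood at 0.61, 0.93 and 0.84 in control tumours, around its saline values of 0.63 to 0.79 and above its AOM values of 0 to 0.39. Rpl5 stood at 1.32, 1.31 and 1.03 after saline, at 0.61, 0.78 and 0.93 after AOM and at 1.06, 1.43 and 1.56 in tumours. Rpl10a stood at 0.96, 0.90 and 0.88 after saline, at 0.43, 0.53 and 0.78 after AOM and at 0.88, 1.44 and 1.03 in tumours. Rpl13a stood at 0.50, 0.60 and 0.32, at 0.08, 0.23 and 0.26 and at 0.56, 1.06 and 0.82 in that order. In these 4 genes tumour and saline arrays overlapped and the AOM arrays were the low group. The same 3 control AOM arrays enter the AOM comparison and the tumour comparison, so the 2 changes are not independent.

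The members called lower were Rps27 (-0.65 ± 0.17), Rpl37a (-0.56 ± 0.18), Rps28 (-0.55 ± 0.20), Rps29 (-0.54 ± 0.18), Rpl36a (-0.54 ± 0.19) and Rps15 (-0.38 ± 0.13), with limma adjusted p from 0.00987 to 0.0440. Rps27 stood at 0.20, 0.75 and 0.71 after saline, at 0.49, 0.48 and 0.23 after AOM and at -0.56, -0.02 and -0.15 in tumours. All 3 tumour arrays were below the pool and below all 6 non-tumour arrays of that diet. Rps15, which sits in the head of the small subunit near the decoding site, stood at 0.39, 0.34 and 0.28 after AOM and at -0.08, 0.09 and -0.15 in tumours. Rpl37a stood at 0.52, 0.47 and 0.24 after AOM and at -0.49, 0.19 and -0.15 in tumours, without overlap, while its saline arrays reached down to -0.01. Rpl36a stood at 0.32, 0.83 and 0.87 after saline, at 1.07, 1.02 and 0.76 after AOM and at 0.04, 0.68 and 0.53 in tumours. Control tumour 1 was far below the others. Tumour and saline arrays thus overlapped for Rpl37a and Rpl36a. They also did for Rps28 (saline down to 0.34, tumours up to 0.46) and Rps29 (saline down to -0.11, tumours up to 0.02). For Rps27 and Rps15 they did not overlap.

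The low calls leaned on control tumour 1. Without that array 16 members were called higher and 1 lower, Rps27 being the one left, and the median change was 0.22. Over all 26073 genes, 2992 were then called higher and 4501 lower. The members' share called higher then exceeded that of all genes. Control tumour 1 was singled out for the low median of these same members under loess. Leaving it out therefore raises their change by construction, and the larger share is a description only. Without control AOM 1, and likewise without control AOM 2, 1 member was called lower. Without the 6 arrays of bright pool channel, a choice made after seeing the data, 3 were called higher and 1 lower.

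**Figure D2:**
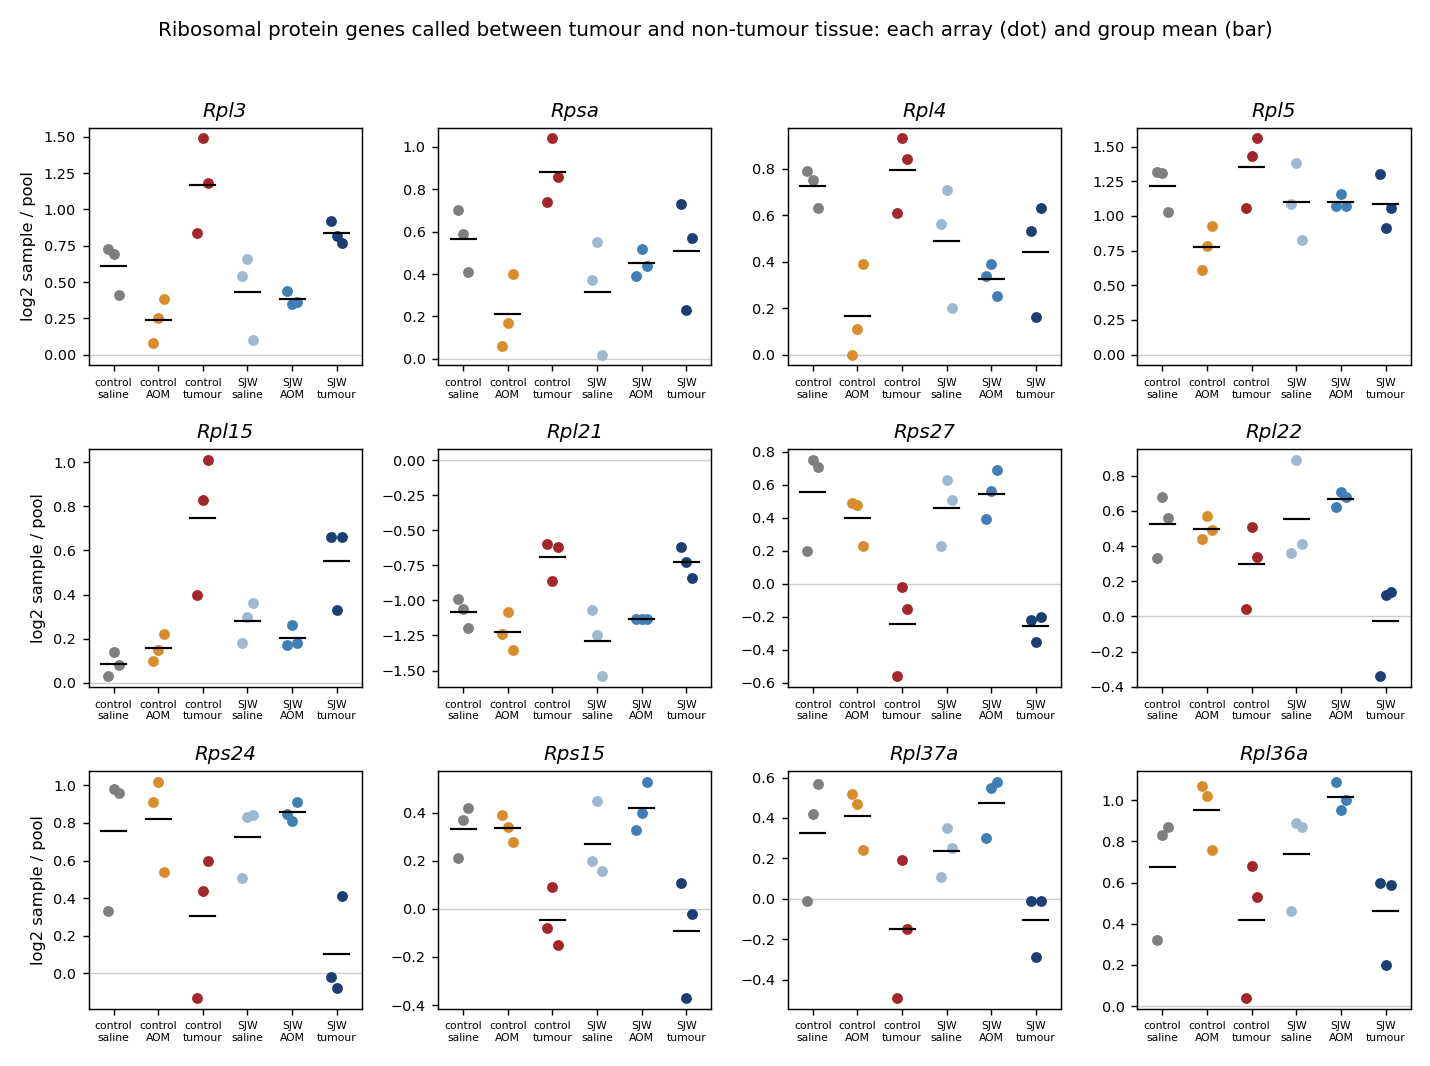
Log2 ratio of sample over pool in each of the 18 arrays (dots) for 12 ribosomal protein genes called between tumour and non-tumour tissue on at least 1 diet, with the mean of the 3 arrays of each group as a bar. Rps27 is below the pool in all 6 tumour arrays, and Rpl3 is at its highest in control tumours, at 0.84 to 1.49.

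In tumours of SJW-fed mice, 9 ribosomal protein genes were lower and 1 was higher than in SJW AOM tissue (12% and 1.33% of members, against 15.4% and 9.18% of all genes). Rps27 had the largest fall, 1.74-fold, and Rpl21 was the gene that rose, 1.32-fold. The median change of the members was -0.14, with 54 of 75 negative, against -0.06 over all genes. With median centring it was 0.07 against 0.10 and no member was called.

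Rps27 stood at 0.39, 0.56 and 0.69 in SJW AOM and at -0.22, -0.35 and -0.20 in SJW tumours, a change of -0.80 ± 0.17 (95% interval -1.17 to -0.44; limma adjusted p = 0.00333). Rps24, a small-subunit protein mutated in some Diamond-Blackfan anaemia, stood at 0.85, 0.81 and 0.91 and at -0.02, -0.08 and 0.41 (-0.76 ± 0.21, limma adjusted p = 0.0179). Rpl22, a large-subunit protein that also binds selected RNAs and is a recurrent target of mutation in human colon cancer, stood at 0.62, 0.71 and 0.68 and at -0.34, 0.12 and 0.14 (-0.69 ± 0.17, limma adjusted p = 0.00774). In all 3 the tumour arrays lay below every SJW AOM array, by a wide gap for Rpl22 and Rps27.

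The other members called lower were Rpl37a (-0.58), Rpl36a (-0.55), Rps21 (-0.54), Rps15 (-0.52), Rpl35a (-0.50) and Rpl13 (-0.44), with limma adjusted p from 0.0110 to 0.0465. Among all 9 called lower, only Rpl36a had tumour arrays (0.60, 0.20 and 0.59) that overlapped with SJW saline (0.46, 0.89 and 0.87). Rpl21 stood at -1.13 on all 3 SJW AOM arrays and at -0.62, -0.73 and -0.84 in SJW tumours (0.40 ± 0.13, limma adjusted p = 0.0373). Rpl3, at 0.92, 0.82 and 0.77 in SJW tumours against 0.44, 0.35 and 0.36, had no overlap either but missed the threshold (0.45 ± 0.17, limma adjusted p = 0.0636). The count of 9 lower came to 2 to 6 when any 1 array of these groups was left out, with 5 without SJW AOM 2, 3 without SJW AOM 3 and 2 without SJW tumour 2. Rpl21 was not called without any 1 of the 3 SJW AOM arrays or without SJW tumour 1.

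The tumour changes on both diets can be set side by side gene by gene. Pearson's r over the 75 members was 0.84, as a description: the diets share no array, but the tumour arrays share slides, and members are not independent of each other. Called on both diets were Rpl21 upward and Rps27, Rpl37a, Rps15 and Rpl36a downward, which is 35.7% of the members called on the control diet and 50% of those called on SJW. None was called in opposite directions, and 54 of 75 had the same sign.

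**Figure D3:**
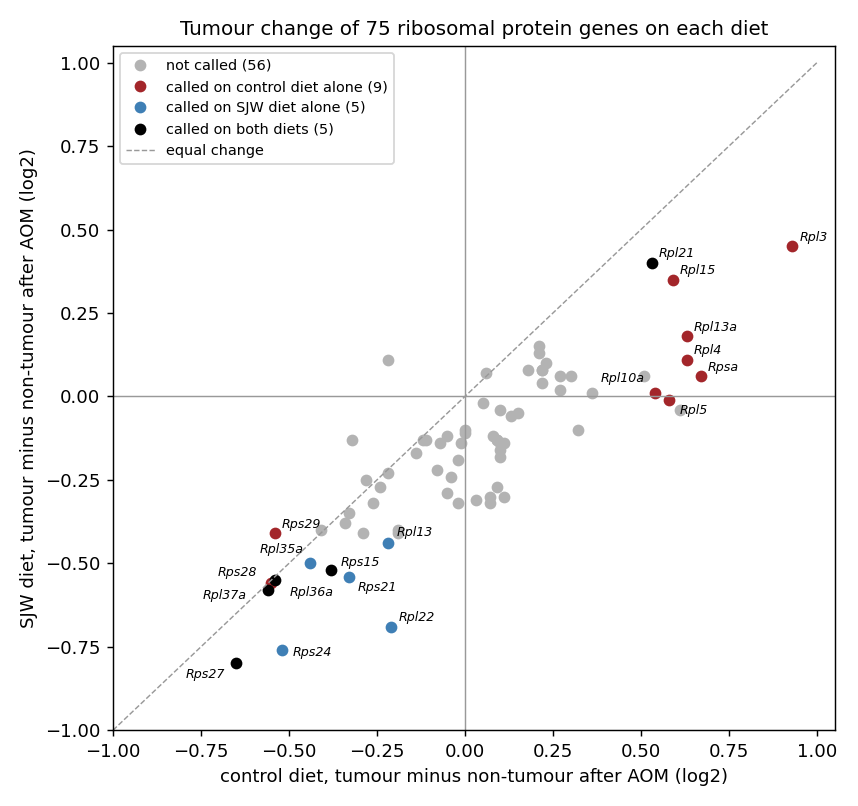
Change of each of the 75 ribosomal protein genes between tumour and non-tumour AOM tissue, on the control diet (horizontal, log2) and on the SJW diet (vertical, log2), coloured by where limma called the gene; the dashed line marks equal change. Called on both diets were 5 genes, and 69 of 75 genes had a lower value on SJW.

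No member was called in the test of whether the tumour change differed between diets (0 of 75 and 0% of 26073 genes in each direction in limma), so the diets are not shown to differ at any ribosomal protein gene. At an unadjusted p under 0.05 there were 4 members (5.33%, against 4.14% of all genes): Rpsa (-0.61 ± 0.22), Rpl5 (-0.59 ± 0.24), Rpl10a (-0.53 ± 0.22) and Rpl4 (-0.52 ± 0.22), each with a limma adjusted p of 1. The 95% interval for Rpsa, -1.09 to -0.13, still allows a sizeable difference. The median difference was -0.18, with 69 of 75 negative, against 0 over all genes, and -0.19 with median centring. It was -0.34 without control tumour 1 and -0.07 without control tumour 2. With the red channel alone it was -0.03, with 30 of 75 positive.

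Array values of Rpsa and Rpl5 are given as a description. Rpsa stood at 0.06, 0.17 and 0.40 in control AOM and at 0.74, 1.04 and 0.86 in control tumours, without overlap. In the SJW groups it stood at 0.39, 0.52 and 0.44 after AOM and at 0.73, 0.23 and 0.57 in tumours, with overlap (0.06 ± 0.16). Rpl5 likewise stood at 1.07, 1.16 and 1.07 after AOM and at 1.30, 0.91 and 1.06 in tumours on SJW (-0.01 ± 0.17).

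Comparing SJW with the control diet directly, limma called no member and no other gene after saline, after AOM or in tumours (0% of all genes in each). At an unadjusted p under 0.05 there were 3 members after saline (4%, against 10.7% of all genes), 0 after AOM (3.18% of all genes) and 2 in tumours (2.67% against 6%). The median change was -0.05 after saline, 0.08 after AOM and -0.13 in tumours, where the all-gene median was 0.01 each time. With median centring the values were 0.47, -0.11 and -0.31, so only the tumour value kept its sign. That value was -0.02 with the scanner's ratio, -0.01 with the deposited table and -0.03 with red alone. It was -0.29 without control tumour 1, with 2 of 75 positive, and -0.02 without control tumour 2. Within slides the tumour value was -0.02 on the slide of replicates 1 and 2 and -0.22 on that of replicate 3. After saline it was 0.05, 0.04 and -0.20, and after AOM 0.02, 0.04 and 0.19, in the order of replicates 1, 2 and 3.

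In tumours the 2 members were Rpsa (-0.37 ± 0.16, no overlap) and Rpl4 (-0.35 ± 0.16), both lower on SJW, with limma adjusted p of 0.810 and 0.812. After saline, Rpl18 (0.56 ± 0.20) and Rpl29 (1.21 ± 0.48) were again the ones that stood out, with limma adjusted p of 0.331 and 0.375 and with the spread of SJW saline given above. Without SJW saline 1, Rpl29 was called higher on SJW (1.91, limma adjusted p = 0.0245).

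The difference of the AOM change between diets had 0 members called, with 0% of all genes, in limma. Its unadjusted p lay under 0.05 for 3 members (4% against 9.34%), among them Rpsa (0.49 ± 0.22, limma adjusted p = 0.528) and Rpl18 (-0.69 ± 0.29, limma adjusted p = 0.521). The median difference was 0.12 and turned to -0.58 with median centring.

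Grouped by role in the ribosome, none of the 3 P stalk genes was called in any comparison: in tumours their changes ran from -0.41 (Rplp1) to -0.01 (Rplp0) on the control diet and from -0.40 to -0.13 on SJW. The second probe of Rplp0 gave 0.37 ± 0.16 in tumours on the control diet and 0.08 ± 0.16 on SJW. Of the 5S pair, Rpl5 was called on the control diet and Rpl11 was not (0.11 ± 0.16 on control diet, -0.30 ± 0.16 on SJW). Of 11 members listed for the exit tunnel, only Rpl4 was called higher on the control diet and only Rpl22 lower on SJW. Over all genes 12.7% were called higher and 19.3% lower on the control diet, and 9.18% and 15.4% on SJW. Neither exit tunnel count exceeded the all-gene share. Of 19 genes mutated in Diamond-Blackfan anaemia, 2 were called higher (Rpl5, Rpl15) and 3 lower (Rps27, Rps28, Rps29) on the control diet, and 3 lower (Rps24, Rps27, Rpl35a) on SJW. These were 10.5% higher and 15.8% lower on the control diet, beside 12.7% and 19.3% of all genes. On SJW 15.8% were lower, beside 15.4% of all genes. Rps19, the gene most often mutated in that disease, had 0.36 ± 0.18 and 0.01 ± 0.18 (limma adjusted p = 0.142 and 0.979).

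The small subunit had 1 member called higher and 4 lower on the control diet and 4 lower on SJW, of 29. The large subunit had 7 higher and 2 lower, and 1 higher and 5 lower, of 46. The 13.8% lower of the small subunit on the control diet was below the 19.3% of all genes, and the 15.2% higher of the large subunit lay near the 12.7% of all genes. Rps6, whose protein is phosphorylated downstream of mTOR, stood at 0.81, 0.78 and 0.70 in control AOM and at 0.52, 1.17 and 0.89 in control tumours, with overlap (0.10 ± 0.15). Rps3 (0.27 ± 0.14), Rpl32 (0.27 ± 0.17), Rps26 (-0.22 ± 0.16) and Rps27a (0.10 ± 0.19), which encodes a fusion with ubiquitin, were not called on the control diet either.

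Probe brightness moved with the tumour change. The 8 members called higher on the control diet had a probe brightness A of 13.5 to 14.3 and the 6 called lower one of 14.4 to 15.6, so the 2 sets did not overlap in brightness. Over the 72 members with A of 12 or more, Pearson's r of brightness with the tumour change was -0.59 on the control diet and -0.44 on SJW. For the AOM change it was 0.60 on the control diet and 0.19 on SJW. The same control AOM arrays enter the -0.59 and the 0.60 with opposite sign, so these 2 values are not independent. Over 1350 other genes with A of 12 or more, r was 0.09, 0.07, -0.08 and -0.04 in the same order. The 72 members lay at A of 13.43 or more, so these other genes reach to dimmer spots. These are descriptions across genes of the same arrays, and the part of brightness in the calls was not tested. A narrower set held 424 other genes about as bright as those 72 members or brighter. Of these 424, 102 (24.1%) were called higher and 96 (22.6%) lower in control tumours, beside 10.7% and 8% of the members. In SJW tumours 68 (16%) and 89 (21%) were called, beside 1.33% and 12% of the members.

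**Figure D4:**
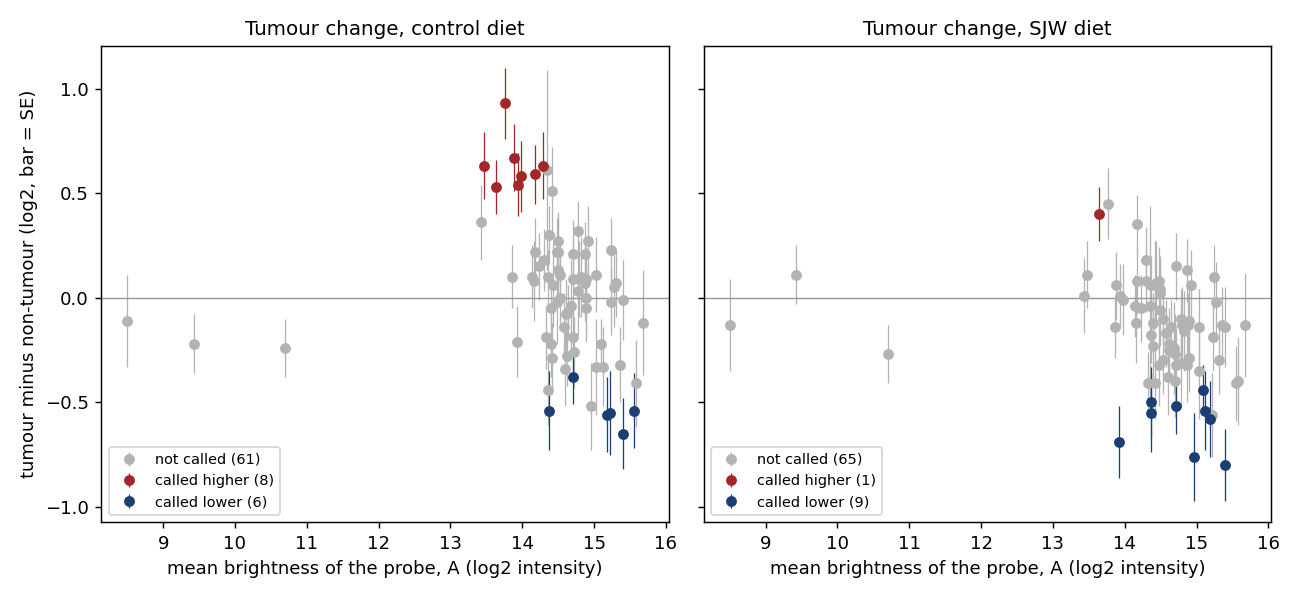
Change between tumour and non-tumour AOM tissue (vertical, log2, bars are the standard error of the fit) against mean probe brightness A (horizontal, log2 intensity) for the 75 ribosomal protein genes, on the control diet (left) and the SJW diet (right). On the control diet the genes called higher lie at A of 13.5 to 14.3 and those called lower at 14.4 to 15.6.

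Probes of the same gene did not always give the same change. In the control-diet tumour comparison the brightest probe of Rpl7 gave 0.22 and its other probes 0.78 and 0.89. The probes of Rps18 gave 0 and 0.62, and those of Rps3 0.27 and 0.71. The dimmer probe gave the larger rise in each.

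Per array, the second probe of Rpl7 minus the brightest stood at -0.61, -0.41 and 0 in control AOM and at 0.36, 0.22 and 0.10 in control tumours. On SJW the same difference was -0.14, -0.24 and -0.28 after AOM and 0.28, 0.22 and 0.29 in tumours. Both diets separated without overlap, on probes that carry the same gene's name. Among 25 probe pairs of 19 genes with both probes at A of 12 or more, the dimmer probe gave the higher tumour change on both diets in 13 pairs and the lower on both in 4. In none of these 25 did all 6 tumour arrays lie above all 12 non-tumour arrays. The dimmer Rpl31 pair did separate, at -0.38 to -0.01 in tumours and -1.07 to -0.61 in non-tumour tissue. On each diet 5 called members had several probes, not the same 5 on both. The probes of each of them had the same sign on the diet where the gene was called. The dimmer probes of Rpl5 (0.18 ± 0.20), Rpsa (0.17 ± 0.18) and Rpl21 (0.36 ± 0.29) on the control diet, and of Rpl21 on SJW (0.20 ± 0.29), nevertheless gave smaller values, near their standard errors. With the mean of all probes 11 members were called higher and 6 lower on the control diet, and 1 and 10 on SJW.

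**Figure D5:**
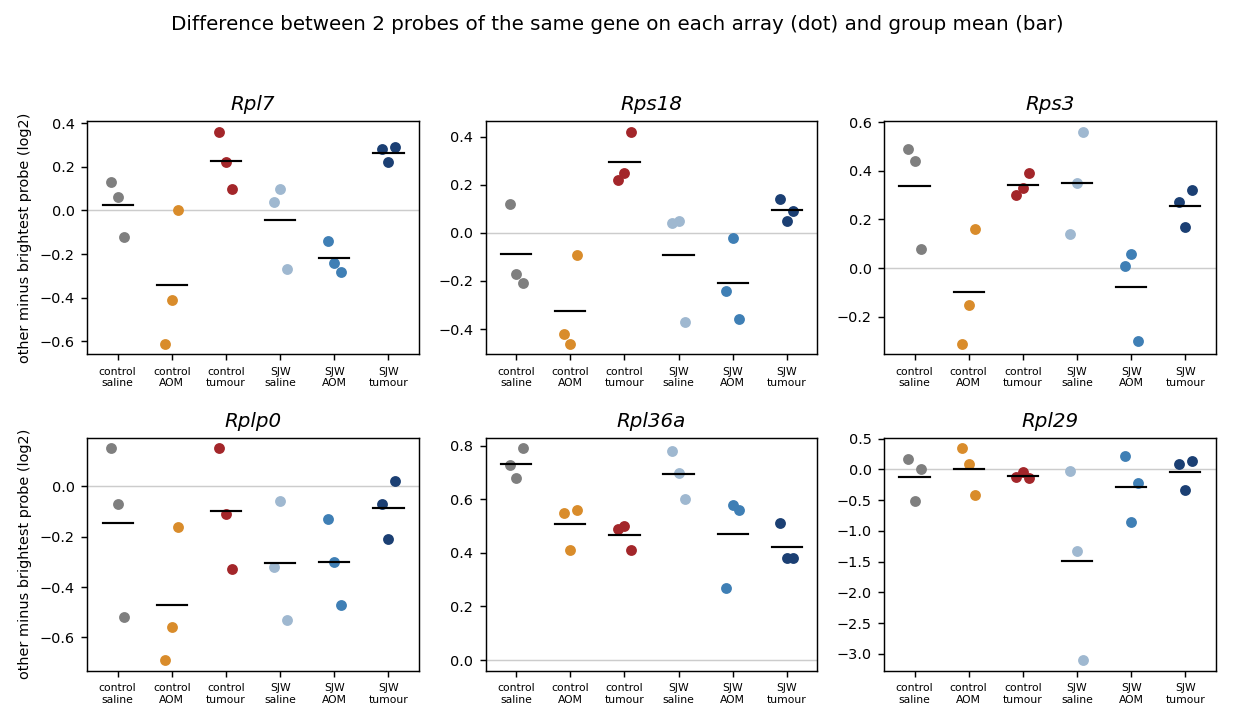
Difference in log2 ratio between a second probe and the brightest probe of the same gene on each array (dots), with group means as bars, for 6 ribosomal protein genes. The Rpl7 difference is 0.10 to 0.36 in tumours and -0.61 to 0 in AOM tissue, and Rpl29 falls to -3.10 in SJW saline 3.

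Of the ribosomal proteins with other symbols, Fau (-0.36 on the control diet and -0.34 on SJW), Rack1 (-0.10 and -0.30) and Rps3a1 (-0.07 and -0.29) were not called in tumours on either diet. Of 7 paralogs measured, Rsl24d1, which encodes a ribosome assembly factor, was called higher on both diets (1.08 ± 0.15 and 0.86 ± 0.15, limma adjusted p = 1e-04 and 0.00084). It stood at -0.95, -0.69 and -1.15 in control AOM and at 0.24, 0.06 and 0.15 in control tumours, far apart. Rpl39l, a testis-rich paralog at -5.59 ± 0.10 (SD, n = 3) in control tumours, was called lower on both (-0.89 ± 0.26 and -1.04 ± 0.26), and Rps4l was called higher on the control diet (1.04 ± 0.24, limma adjusted p = 0.00375).

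Rpl22l1, the paralog whose message Rpl22 is known to repress, was not called where Rpl22 was lower: it stood at 0.45, 0.31 and 0.60 in SJW AOM and at 0.76, -0.30 and 0.21 in SJW tumours, with wide overlap (-0.23 ± 0.23, limma adjusted p = 0.499). Rps27l, a p53 target, stood at -0.05, 0.14 and 0.12 in SJW saline and at 0.25, 0.62 and 0.36 in SJW AOM (0.34 ± 0.12, limma adjusted p = 0.155). On the control diet it stood at 0.15, -0.03 and 0.13 and at 0.30, 0.33 and 0.40 (0.26 ± 0.12, limma adjusted p = 0.370). Neither pair of groups overlapped, and neither change passed the test.

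Genes that build the ribosome had a larger share called higher in control-diet tumours than the 10.7% of the ribosomal proteins, a difference that was not tested. Of 61 biogenesis genes, 22 were called higher and 2 lower on the control diet (36.1% and 3.28%, median 0.31), and 6 and 3 on SJW (9.84% and 4.92%, median 0.13), beside medians of -0.05 and -0.06 over all genes. Among them were the nucleolar proteins Ncl (0.61 ± 0.14) and Gnl3 (0.94 ± 0.18) on the control diet, while fibrillarin (Fbl, 0.03 ± 0.15) was not called. Of 14 genes of RNA polymerase I and its factors, 1 was higher and 1 lower on the control diet and 1 lower on SJW. Over all genes 12.7% were called higher and 19.3% lower on the control diet, and 9.18% and 15.4% on SJW.

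Of 78 mitochondrial ribosomal proteins, 23 were called lower and 1 higher on the control diet (29.5% lower) and 21 lower and 0 higher on SJW (26.9%), beside 19.3% and 15.4% of all genes lower, with medians of -0.18 and -0.20; Mrpl14 fell by 0.99 and by 0.85. Of 19 other genes with TOP messages, 1 was higher and 2 lower on each diet (5.26% and 10.5%). Npm1 was higher on the control diet (0.84 ± 0.20), Vim on SJW (1.64 ± 0.47), and the elongation factors Eef1a1 and Eef2 were called on neither. Of 30 other translation factors, 8 were higher and 4 lower on the control diet (26.7% and 13.3%) and 7 and 4 on SJW (23.3% and 13.3%), beside 12.7% and 9.18% of all genes higher, with Eif4a1 (0.73 ± 0.15) and Eif3a (0.85 ± 0.15) among those higher and Eif6, which keeps the subunits apart, lower (-0.97 ± 0.12).

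Of 17 growth regulators of ribosome genes, 3 were higher and 4 lower on the control diet, beside 12.7% and 19.3% of all genes. On SJW 2 were higher and 4 lower, beside 9.18% and 15.4% of all genes. Myc stood at 0.19, 0.68 and 0.06 in control AOM and at 1.01, 0.97 and 2.24 in control tumours. All tumour arrays were above, and it was called on both diets (2.15-fold and 1.79-fold, limma adjusted p = 0.00549 and 0.0317). Its antagonist Mxd1 (-2.87 ± 0.25 and -1.85 ± 0.25) and the mTOR inhibitor Deptor (-1.41 ± 0.22 and -1.25 ± 0.22) were lower on both. The TOP-binding Larp1 was called on neither (0.05 ± 0.12 and -0.05 ± 0.12).

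Markers of cell types differed between the same tissues. Beside the counts below, 12.7% of all genes were called higher and 19.3% lower in control tumours, and 9.18% and 15.4% in SJW tumours. In tumours, 6 of 6 epithelial markers were lower on the control diet and 5 of 6 on SJW, and the mean of the list was 2.43 to 2.85 in control tumours against 3.43 to 3.64 in control AOM. Of 9 smooth muscle markers, 7 were lower on each diet, and the list mean in control tumours was -1.21 to -0.81 against 0.99 to 2.57 in control AOM. Of 12 proliferation genes, 5 were higher on the control diet and 2 on SJW, with list means of 0.41 to 0.81 in control tumours and 0.05 to 0.37 in control AOM. All 7 goblet markers were lower on each diet, with list means of 1.77 to 2.89 in control tumours and 5.27 to 6.01 in control AOM. Colon list means were 0.45 to 0.90 against 2.92 to 4.10. Macrophage list means were 0.26 to 0.51 against -0.76 to -0.09, and neutrophil list means 0.88 to 1.75 against -0.28 to -0.03. Between saline and AOM tissue the lists differed too: on the control diet smooth muscle averaged -1.34 to 0.90 after saline and 0.99 to 2.57 after AOM, and fibroblast markers -2.25 to -1.75 and -1.14 to -0.78. Pancreatic acinar markers averaged 3.85 on 1 SJW AOM array, where the group's median was -0.84. The part of these shifts in the ribosomal protein values was not tested. In whole tissue, fewer cells of a type and less RNA per cell cannot be told apart.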

How the data were processed

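The RNA of 18 samples was hybridised to 2-colour Agilent arrays. Per the file headers, the authors deposited scanner output of Agilent Feature Extraction 10.10.1.1 (protocol GE2_1010_Sep10), with spot intensity in each channel and a log10 ratio of red over green. The authors also deposited a value table, used as an alternative. The deposited log2 ratios, made by the authors from the same arrays, followed the scanner's in scale and direction (r of 0.9955 to 1 per array), and its column medians were -0.031 to 0.342. Median intensities were background-corrected with normexp (offset 50) and loess-normalized within arrays, with control spots (1639 of 45018) at weight 0, in limma 3.58.1 with R 4.3.3 and data.table version 1.17.8. Of 41174 probes, 34081 were kept, which exceeded the scanner software's background test in the red channel throughout at least 1 group. Probes were named through RefSeq accessions, with 1 symbol for 27050 and none for 14124, and the brightest probe stood for a gene. A single limma fit over 18 arrays gave 9 comparisons. P-values were Benjamini-Hochberg adjusted over 26073 genes, with 0.05 as the threshold.

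The members and lists were chosen with earlier results of these data known. Genes named by rule were, per comparison, up to 8 called members in each direction without overlap between groups, the 5 of smallest p in each direction where under 10 were called, 15 members of known role, and the paralogs. Genes named from the other lists were chosen after their values were seen. Same-numbered non-tumour arrays share a slide. The correlation of their deviations passed 0.1 for every pair only between the diets after saline (0.17, 0.41 and 0.36), and no call changed there with the replicate block. The alternatives were other scalings, offsets, spot and probe filters, blocks, fewer groups and leaving out each array. The fit was tested on simulated data.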

Additional observations from a re-analysis of the deposited data

How the results depend on the processing

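No ribosomal protein gene was called in the comparisons of AOM with saline, of the diets, or of their differences under any alternative that left all arrays in. The counts in tumours did depend on the processing. In control tumours, the main counts of 8 higher and 6 lower became 5 higher with the scanner's log ratio, 1 higher with the deposited table (59 members), 1 and 2 with the red channel alone, 3 lower with an offset of 16, 2 and 2 without non-uniform spots, and 5 and 1 with only the groups compared. In SJW tumours, 1 higher and 9 lower became 0 higher under loess without member spots and with the scanner's ratio, 0 and 5 with the deposited table, 0 and 3 with red alone, 5 lower without non-uniform spots, and 2 higher with only the groups compared. Median centring gave 0 lower in control tumours and 0 in either direction in SJW tumours. It gave median changes of 0.40 and -0.19 for AOM on control and SJW diet, 0.27 and 0.07 for tumours, 0.47, -0.11 and -0.31 for SJW after saline, after AOM and in tumours, and -0.58 for the difference of the AOM change. The AOM median on SJW was 0.28 with the scanner's ratio and 0.31 with the deposited table, and the difference of the AOM change 0.29 with each. Without the 6 arrays of bright pool channel, chosen after seeing the data, control tumours had 3 higher and 1 lower, and the medians were -0.05 for AOM on SJW, 0.24 for SJW after saline and -0.17 for the difference of the AOM change. With red alone the sign turned for Rpsa in control tumours (-0.15) and for Rpl13 (0.01) and Rpl21 (-0.17) in SJW tumours. Leaving out 1 array gave 6 to 16 higher and 1 to 7 lower in control tumours with a median of -0.07 to 0.22, 0 to 1 higher and 2 to 6 lower in SJW tumours, 0 to 2 lower for AOM on SJW, 0 to 1 higher for SJW after saline, and -0.34 to -0.07 for the median difference of the tumour change. The replicate block, with 8 higher and 5 lower in control tumours and 1 and 8 in SJW tumours, changed no other count of calls. The cause of these differences was not tested.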
